A study of Mus musculus with 8 samples.

Results

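Transcripts of 9 genes that write, erase or read DNA methylation were followed in layer IV of the mouse visual cortex: the methyltransferases Dnmt1 and Dnmt3a, the dioxygenases Tet1, Tet2 and Tet3, the DNA glycosylase Tdg, and the methyl-CpG-binding domain genes Mbd1, Mbd2 and Mbd3. They were chosen by function and matched by symbol, and make up 9 of the 34980 genes that the count files name. These genes, and the gene lists used below, were chosen with earlier results of these data known. Counts of called genes set beside the share over all genes are therefore only a description. Each gene was represented by its transcript with the most reads over all libraries. Layer IV was dissected by hand from B6D2 mice, so each library holds RNA of every cell type in the dissected tissue. The groups were wild-type mice (Otx2 +/+) at postnatal day 30 (P30), wild-type mice at postnatal day 100 (P100), and Otx2 +/- heterozygous mice at P30, with 2 libraries in each. The heterozygous allele is written +/GFP in the design text, tissue of 4 mice was pooled per condition, and the 2 heterozygous samples at P100 were not analysed here. Nothing in the labels ties each duplicate to a pool of its own. The p-values therefore measure only the spread between these libraries, which may be technical. Otx2 is a homeodomain transcription factor, and the series title places it upstream of visual cortex plasticity. The age comparison within wild type and the genotype comparison at P30 both use the wild-type P30 libraries.

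In DNA methylation, Dnmt1 copies existing methyl marks to the new strand after replication, while Dnmt3a sets marks on unmethylated cytosines and is the main such enzyme of postnatal neurons. Tet enzymes oxidise methylcytosine to hydroxymethylcytosine, an abundant base in brain DNA, and on to forms that Tdg cuts out before base excision repair fills the gap. Mbd1 and Mbd2 bind methylated CpG sites and recruit repressors. Mbd3 binds methylated DNA poorly and, like Mbd2, is a subunit of the nucleosome remodelling and deacetylase (NuRD) complex.

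Gene-level totals ran from 11016841 to 15308781 reads per library, with 20094 to 20933 genes detected. All 9 genes passed the filter on low counts, along with the rest of the 15841 genes tested. Otx2 had 0 reads in 5 libraries and 73 in heterozygous replicate 2, so its RNA does not check the genotype labels. Heterozygous replicate 2 also held choroid plexus transcripts, with Ttr (transthyretin) at 584 CPM (counts scaled to library size by TMM) against 0 to 0.0724 CPM elsewhere. Rorb, a marker of layer IV neurons, lay between 497 and 581 CPM in all 6 libraries. Sex-linked transcripts separated the genotypes, with 785 and 924 CPM of Xist in heterozygotes but 0.264 to 0.639 CPM in the wild-type libraries, so that genotype and sex cannot be told apart. In bulk tissue, fewer cells of a type and less RNA per cell cannot be told apart either.

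Promoter windows are shown for Tet3 and Dnmt3a, which gave most of the transcripts called lower with age, and for Tdg, of which 2 transcripts were called between genotypes. Each printed window covers the start of a transcript described in the results, except the window named for Dnmt3a-201. That window ends just before the start of Dnmt3a-201 at chr12:3807030. They are RefSeq reference sequence of GRCm38.p6, 250 bases before to 50 after an annotated start, written 5′ to 3′ on the gene's strand. Of the 9 genes, 7 matched this table, with 11 windows. Capitals mark matches, on either strand, to TGANTCA (AP-1), TGACGTCA (cyclic AMP response element), TGACG (its half-site, which lies within the full element), GCGNGGGCG (Egr) or TAATCC (Otx-type homeodomain). Among all 32851 windows, these letters occurred in 7.81%, 1.79%, 20.8%, 5.55% and 7.06%. The first window covers the shared start of both Tet3 transcripts at chr6:83441629-83441928 (minus strand). The next, named for Dnmt3a-201, lies just upstream of its start at chr12:3806730-3807029 (plus strand). The third is the internal start of Dnmt3a-203 at chr12:3891494-3891793 (plus strand), and the last is the Tdg start at chr10:82629588-82629887 (plus strand).
Tet3: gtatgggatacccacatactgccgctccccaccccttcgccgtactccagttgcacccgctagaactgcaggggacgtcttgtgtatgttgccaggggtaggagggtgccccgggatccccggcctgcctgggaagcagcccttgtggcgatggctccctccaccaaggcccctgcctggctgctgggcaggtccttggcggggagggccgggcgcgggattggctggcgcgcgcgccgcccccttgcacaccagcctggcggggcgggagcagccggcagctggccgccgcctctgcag
Dnmt3a-201: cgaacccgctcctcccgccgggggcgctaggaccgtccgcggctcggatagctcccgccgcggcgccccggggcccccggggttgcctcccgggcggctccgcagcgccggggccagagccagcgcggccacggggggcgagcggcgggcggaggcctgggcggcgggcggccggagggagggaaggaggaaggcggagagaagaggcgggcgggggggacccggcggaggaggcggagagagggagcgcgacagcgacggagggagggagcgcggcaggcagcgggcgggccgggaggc
Dnmt3a-203: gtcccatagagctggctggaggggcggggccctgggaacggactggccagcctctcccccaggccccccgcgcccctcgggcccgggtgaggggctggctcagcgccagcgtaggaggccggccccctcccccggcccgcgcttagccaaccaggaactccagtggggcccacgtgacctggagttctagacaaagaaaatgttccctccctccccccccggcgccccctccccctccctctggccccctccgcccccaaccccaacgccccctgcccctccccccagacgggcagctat
Tdg: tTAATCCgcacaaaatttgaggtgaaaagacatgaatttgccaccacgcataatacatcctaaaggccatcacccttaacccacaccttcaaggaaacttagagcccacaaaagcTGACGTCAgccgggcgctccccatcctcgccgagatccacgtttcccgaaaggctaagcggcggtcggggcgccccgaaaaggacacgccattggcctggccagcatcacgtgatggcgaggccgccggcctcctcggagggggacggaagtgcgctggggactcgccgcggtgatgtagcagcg
The Tet3 window held 22 CpG sites and none of the 5 motifs. The window named for Dnmt3a-201, just upstream of that start, held 46 CpG sites and no match. The Dnmt3a-203 window held 18 and no match. A further Dnmt3a window, at the start of Dnmt3a-218 (chr12:3806910-3807209), held 47 CpG sites and 1 Egr match at position -129 from the Dnmt3a-218 start. This further window also covers the start of Dnmt3a-201. The Tdg window held 26 CpG sites, 1 full cyclic AMP response element at -135 from the start and TAATCC at -249. The median over all windows was 7 CpG sites. A match is only a description of these letters, and binding was not measured.

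Levels between genes were compared as CPM per kilobase of the counted transcript. In wild-type P30 tissue the order was Dnmt3a at 23.3 ± 0.458 CPM per kb, Mbd2 at 22.8 ± 0.952, Mbd3 at 20.4 ± 0.219, Tet2 at 19.1 ± 4.02, Dnmt1 at 13.7 ± 0.326, Tet3 at 11.5 ± 2.92, Mbd1 at 11.5 ± 0.836, Tet1 at 3.47 ± 0.07 and Tdg at 1.26 ± 0.524 (mean ± SD, n = 2). The differences between Dnmt3a and Mbd2, between Tet2 and either Mbd2 or Mbd3, and between Tet3 and either Dnmt1 or Mbd1 were no larger than the larger SD of each pair, so their order is not fixed by these values. In wild-type P100 tissue Mbd2 stood first at 23.5 ± 0.649 CPM per kb, and Tet3, at 5.39 ± 0.638, stood below Mbd1 at 10.9 ± 0.508. Tet1 and Tdg were the lowest of the 9 in every group. Depth differed accordingly: Dnmt3a was counted by 1771 to 3309 reads per library, Tet3 by 612 to 2132 and Tdg by only 27 to 82.

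**Figure D1:**
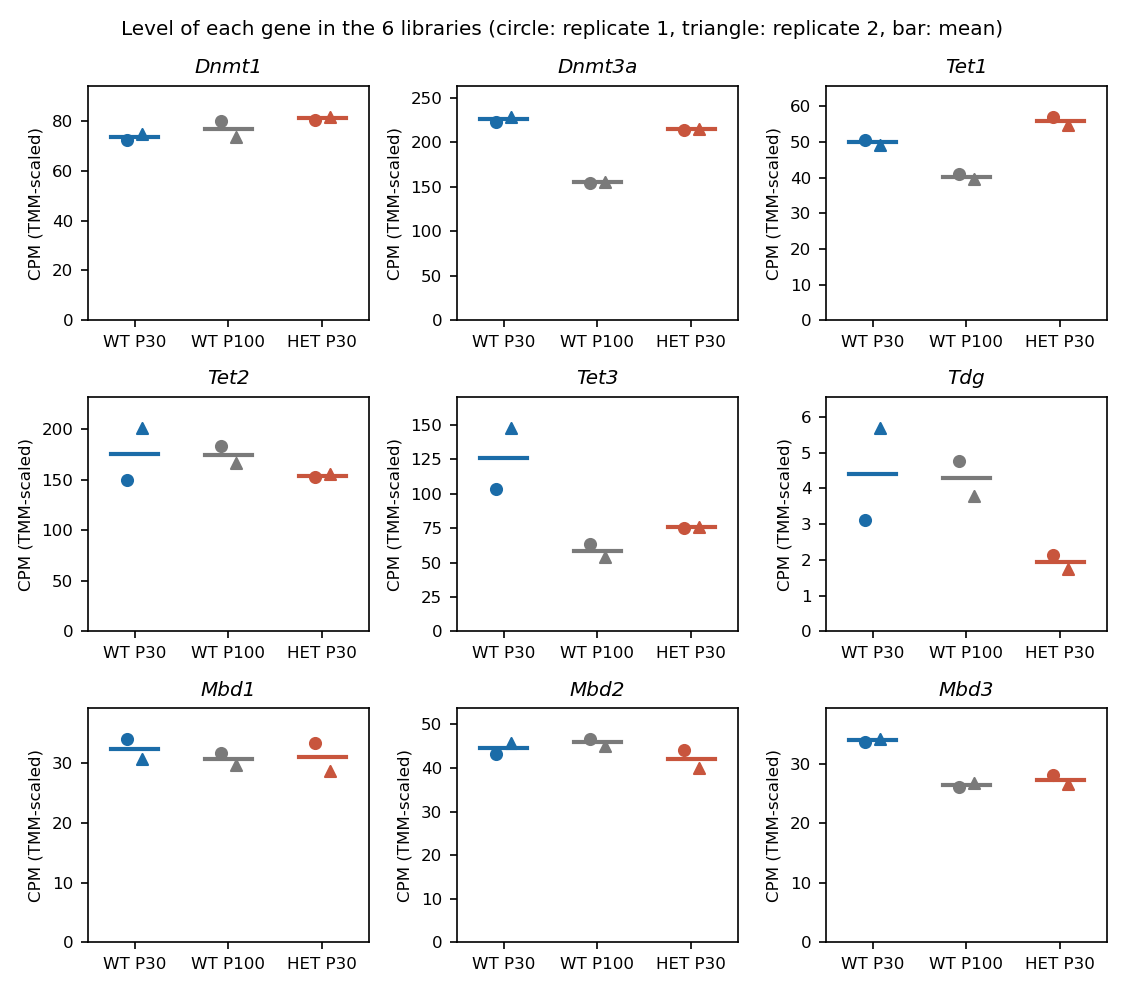
Level of each of the 9 genes in each of the 6 libraries, in TMM-scaled CPM on a vertical axis that starts at 0 in each panel. Points are libraries and bars are group means of 2. Dnmt3a and Tet1 are low at P100, Tet3 is high in wild-type P30, and the wild-type P30 points of Tet2, Tet3 and Tdg lie far apart.

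With age, the writer Dnmt3a, the eraser Tet3 and the reader Mbd3 fell in wild type, and none of the 9 rose (edgeR quasi-likelihood test, Benjamini-Hochberg adjusted p under 0.05 over all genes). That is 3 of 9, against 4.54% of all tested genes called lower and 7.54% called in either direction. The Mbd3 call was just past the threshold and was lost in 9 of 15 alternative analyses. The 2 groups did not overlap for 4 of the 9, the 3 above and Tet1, against 51.2% of all tested genes. The median log2 difference over the 9 was -0.07 and over all tested genes 0.0.

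Among the writers, Dnmt3a (ENSMUSG00000020661, mm10 chr12:3806007-3914443, plus strand, counted on the 23 exons of Dnmt3a-201) had 223 and 229 CPM in the wild-type P30 libraries, 155 and 156 at P100, and 214 and 215 in the heterozygous P30 libraries. Both P100 values lay below all 4 others, and duplicates differed little. The P100 level was 1.45-fold lower than at P30 in wild type (log2 difference -0.54, SE 0.07, adjusted p = 0.000265). Dnmt1 (ENSMUSG00000004099, chr9:20907209-20959888, minus strand) had 72.1 and 74.6 CPM at P30, 79.8 and 73.3 at P100, and 80.4 and 81.6 in the heterozygous libraries, and its age groups overlapped. The age difference of Dnmt1 was 0.06 on the log2 scale, with a 95% interval from -0.11 to 0.24 (adjusted p = 0.705). Per kilobase, Dnmt3a stood at 1.71 and 1.70 times Dnmt1 in the wild-type P30 libraries, at 1.07 and 1.18 times in the P100 libraries, and at 1.47 and 1.46 times in the heterozygous libraries. This ratio of Dnmt3a to Dnmt1 RNA was lower in both P100 libraries than in any P30 library, and it was not tested.

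Among the Tet dioxygenases, Tet3 (ENSMUSG00000034832, chr6:83362373-83459084, minus strand, counted on the 11 exons of Tet3-202) had 103 and 148 CPM in wild-type P30, 63.7 and 53.9 at P100, and 75.4 and 76.2 in heterozygous P30. Every wild-type P30 value lay above every other one, although the duplicates of that group differed 1.44-fold (replicate 2 over replicate 1). Tet3 was 2.14-fold lower at P100 (log2 difference -1.10, SE 0.14, adjusted p = 0.000307). Without wild-type P30 replicate 2 the log2 difference was -0.81 and its adjusted p 0.0017.

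Tet1 (ENSMUSG00000047146, chr10:62804570-62908996, minus strand) had 50.6 and 49.2 CPM at P30 and 40.9 and 39.7 at P100, groups that did not overlap. Its log2 difference of -0.31 (SE 0.09, interval -0.50 to -0.11) missed the threshold, with an adjusted p of 0.0568. Tet2 (ENSMUSG00000040943, chr3:133463679-133545139, minus strand) had 149 and 201 CPM at P30 and 183 and 166 at P100, so that the older libraries lay between the younger ones. Its interval ran from -0.24 to 0.22 (adjusted p = 0.973). Of the CPM per kilobase summed over the 3 Tet genes, Tet3 made up 32.4% and 34.9% at P30 and 20.4% and 19.1% at P100, while Tet2, which was not called, made up 55.6% and 56.3% at P30 and 69.7% and 70.2% at P100. In the heterozygous libraries Tet3 made up 25.1% and 25.2% and Tet2 60.4% and 61.1%, between the wild-type groups. Tet1 made up 14.5% and 13.7% there, above both wild-type P30 libraries and above the 9.94% and 10.7% of P100. These shares were not tested.

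Tdg (ENSMUSG00000034674, chr10:82629828-82650799, plus strand), the glycosylase that acts after the Tet enzymes, had 3.10 and 5.70 CPM at P30 and 4.78 and 3.78 at P100. The groups overlapped, and the interval of its log2 difference, -0.67 to 0.55, was the widest of the 9. Only 34 to 82 reads stood behind each of these values, and the P30 duplicates differed 1.84-fold.

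Of the readers, Mbd3 (ENSMUSG00000035478, chr10:80392539-80399550, minus strand) had 33.7 and 34.2 CPM at P30, 26.1 and 26.8 at P100, and 28.1 and 26.5 in the heterozygous libraries. Both wild-type P30 values lay above all others. The age difference was 1.29-fold (log2 -0.36, SE 0.10, adjusted p = 0.0458), just past the threshold. It missed the threshold when any 1 of the 6 libraries was left out (adjusted p 0.0676 to 0.158) and under DESeq2 (0.132). The wild-type values of Mbd1 (ENSMUSG00000024561), a reader with a CXXC zinc finger, were 34.1 and 30.8 CPM at P30 and 31.8 and 29.7 CPM at P100. Mbd2 (ENSMUSG00000024513) had 43.2 and 45.8 CPM at P30 and 46.8 and 45.0 at P100. Both overlapped, with log2 intervals of -0.31 to 0.17 for Mbd1 and -0.17 to 0.25 for Mbd2 (adjusted p = 0.754 and 0.839).

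**Figure D2:**
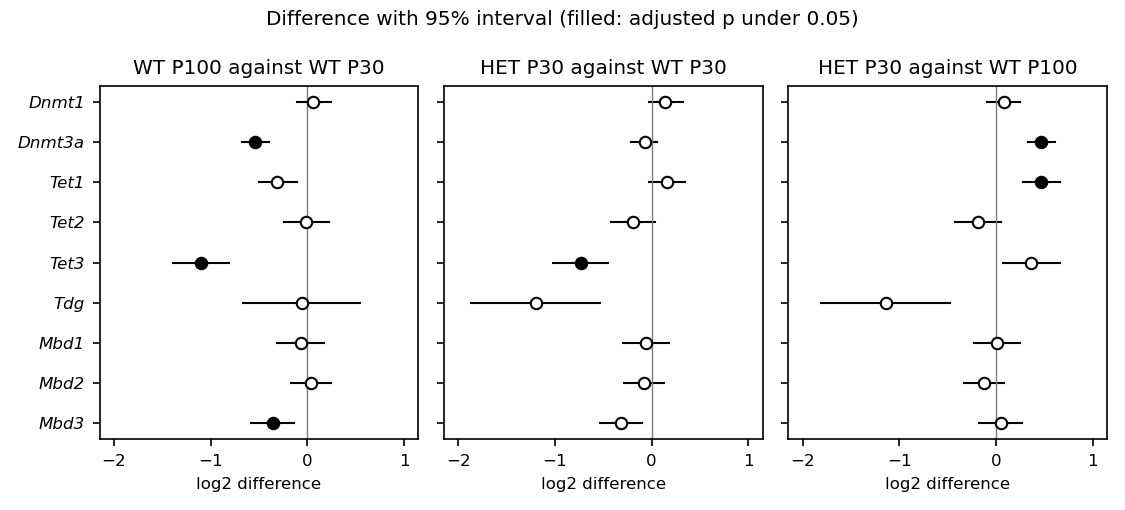
Log2 difference (horizontal axis) with its 95% interval for each of the 9 genes in the 3 comparisons of the groups. Filled points passed an adjusted p of 0.05 in edgeR. Dnmt3a, Tet3 and Mbd3 were called lower in the age comparison, Tet3 alone in the genotype comparison, and Dnmt3a and Tet1 were called higher in heterozygous P30 than in wild-type P100.

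Otx2 heterozygotes were compared with wild type at P30 to see which of these genes differ between genotypes, which here cannot be told apart from sex. Tet3 was the only one of the 9 called, 1 of 9 lower, against 2.32% of all tested genes called lower and 3.23% called in either direction. Its heterozygous values of 75.4 and 76.2 CPM were 1.66-fold below the wild-type mean of 126 ± 31.8 CPM (log2 difference -0.73, SE 0.13, adjusted p = 0.00778). The size rests on wild-type P30 replicate 2: without it the log2 difference was -0.44 with an adjusted p of 0.0757, and without replicate 1 it was -0.97. For 6 of the 9 genes (Dnmt1, Dnmt3a, Tet1, Tet3, Tdg and Mbd3) the groups did not overlap, against 48.9% of all tested genes, and the median log2 difference was -0.08.

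Tdg had 2.14 and 1.76 CPM in the heterozygous libraries, below all 4 wild-type values. The log2 difference of -1.20 (SE 0.31, interval -1.87 to -0.53) missed the threshold with an adjusted p of 0.0533, and only 32 and 27 reads stood behind the heterozygous values. Without wild-type P30 replicate 1 it passed (-1.54, adjusted p = 0.0136), and without replicate 2 it was -0.67. In wild-type P30, Tdg was 1.84-fold higher in replicate 2 than in replicate 1, and Tet2 was 1.35-fold higher, while the other genes apart from Tet3 differed by a factor of 0.902 to 1.06.

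Dnmt3a, called in the age comparison, had an interval of -0.21 to 0.06 for genotype (adjusted p = 0.609). Tet1 had 57.1 and 54.6 CPM in the heterozygous libraries, above both wild-type P30 values (log2 difference 0.16, adjusted p = 0.366). Tet2 had 152 and 156 CPM there, between its wild-type P30 values, and its log2 difference of -0.19 had an adjusted p of 0.398. It was called without wild-type P30 replicate 1 (-0.39, adjusted p = 0.0329) and turned to 0.05 without replicate 2. Mbd3 lay below wild type without passing (log2 difference -0.32, adjusted p = 0.11). For Dnmt1 the log2 difference was 0.14 with an interval of -0.03 to 0.32. Mbd1 had 33.4 and 28.8 CPM and Mbd2 44.2 and 40.0 CPM in the heterozygous libraries. Their intervals were -0.30 to 0.18 and -0.29 to 0.13. Choroid plexus markers summed to 1040 CPM in heterozygous replicate 2 and to 156 to 215 CPM elsewhere. Without that library the Tet3 difference was -0.74 (adjusted p = 0.0215), that of Tdg -1.07 (adjusted p = 0.191) and that of Mbd3 -0.27 (adjusted p = 0.399).

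Heterozygous P30 tissue set against wild-type P100 tissue differs in age, in genotype and in sex-linked transcripts (Xist log2 difference 11.35). The contrast equals the test of whether the age and genotype differences from wild-type P30 are the same. Dnmt3a was 1.38-fold higher in the heterozygous libraries (log2 difference 0.47, SE 0.06, adjusted p = 0.00106), and Tet1 was 1.39-fold higher (0.47, SE 0.09, adjusted p = 0.00836). These are 2 of 9 higher against 2.44% of all tested genes, and none was lower against 2.66%. For Dnmt3a and Tet1 the age difference therefore differed from the genotype difference, which cannot be told apart from a difference of sex. The Tet1 call was lost without heterozygous replicate 1 (adjusted p = 0.0857) and without wild-type P100 replicate 2 (0.0641). For Tet3 the contrast was 0.36 (interval 0.07 to 0.66, adjusted p = 0.154), and it passed in 4 alternative analyses. Mbd3 stood at 0.05 with an adjusted p of 0.855, and Tdg at -1.14 with an adjusted p of 0.0524. Groups did not overlap for 7 of the 9 genes, against 50.5% of all tested genes.

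**Figure D3:**
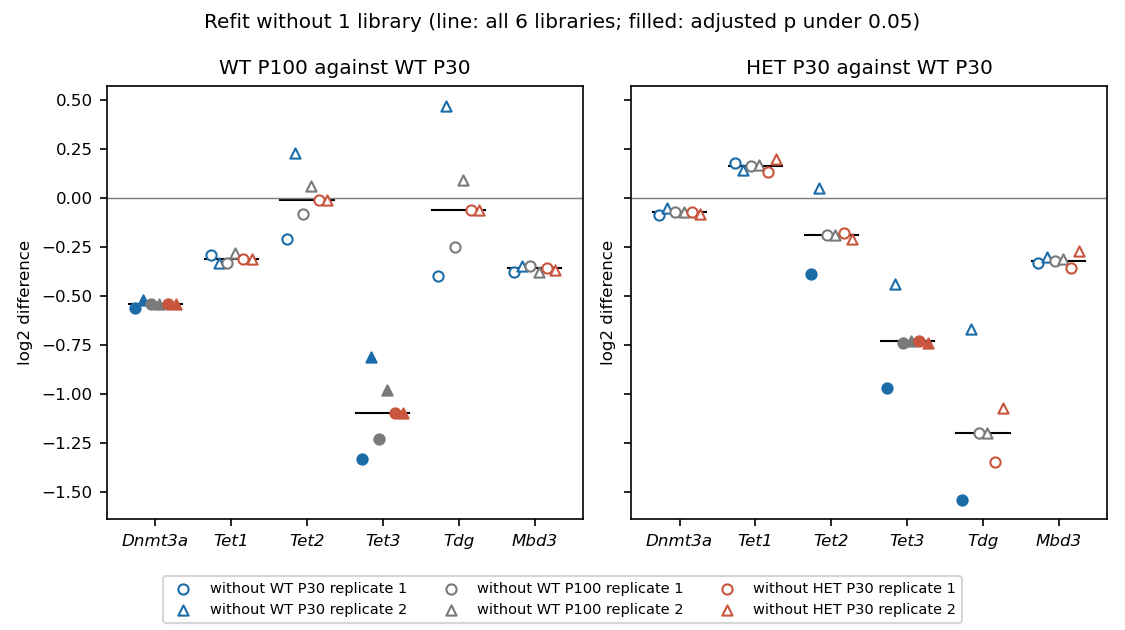
Log2 difference (vertical axis) refitted without each library in turn, for 6 of the genes and for the age (left) and genotype (right) comparisons. Black lines are the values from all 6 libraries and filled symbols passed an adjusted p of 0.05. Dnmt3a stays between -0.56 and -0.52 for age, while Tet3 runs from -1.33 to -0.81 for age and from -0.97 to -0.44 for genotype, the weakest values being those without wild-type P30 replicate 2.

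The files count each annotated isoform, and a read in a shared exon is counted in every isoform that holds it, so isoforms are not independent. All 48 transcripts of the 9 genes passed the filter. Of these, 15 were lower with age and 0 higher, against 3.47% of all 62163 transcripts tested called lower and 5.76% in either direction. The count was 7 to 10 when any 1 library was left out and 6 under DESeq2. Dnmt3a gave 12 of its 18, with log2 differences of all 18 from -1.28 to -0.36, so that every one had the sign of the gene's difference. The transcript from the internal start, Dnmt3a-203 of 5424 bases, differed by -0.61 (SE 0.08, adjusted p = 6.01e-05) and Dnmt3a-201 by -0.54 (adjusted p = 8.88e-05). Reads on Dnmt3a-203 were 64.8% and 61.7% of those on Dnmt3a-201 in wild-type P30, 61.7% and 58.3% at P100 and 62.7% and 61.7% in heterozygous P30. The farthest from 0 was Dnmt3a-214, a retained-intron transcript of 369 bases, at -1.28 (SE 0.21, adjusted p = 0.00106), with 81 and 109 reads at P30 and 47 and 31 at P100.

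Both Tet3 transcripts fell with age, the long coding Tet3-202 by 1.10 on the log2 scale (adjusted p = 2.42e-05) and the non-coding Tet3-201 of 2523 bases by 0.63 (adjusted p = 0.0324). Reads on Tet3-201 were 20.3% and 23.5% of those on Tet3-202 at P30 and 28.4% and 34.3% at P100. The remaining call was Mbd3-206 at -0.42 (adjusted p = 0.0382), while the other 5 Mbd3 transcripts ranged from -0.36 to -0.34 and did not pass. None of 6 Tet1, 8 Tdg or 5 Mbd2 transcripts was called. Between genotypes 4 of 48 were lower and 0 higher, against 2.01% of all transcripts called lower and 2.79% in either direction. They were Tet3-201 and Tet3-202 at -0.74 and -0.73 (adjusted p = 0.0187 and 0.00197), and Tdg-208 and Tdg-201 at -1.20 and -1.14 (adjusted p = 0.0327 and 0.0438). Tdg-208 is the transcript counted for the gene, and the same reads missed the threshold in the edgeR fit of genes (adjusted p = 0.0533). The 8 Tdg transcripts ranged from -1.30 to -0.30. The 18 Dnmt3a transcripts ranged from -0.68 to 0.11 with none called. Without heterozygous replicate 2, 1 transcript was called between genotypes. In heterozygous P30 against wild-type P100, 10 of 48 transcripts were higher (8 of Dnmt3a and 2 of Tet1), against 1.85% of all transcripts, and 2 of Tdg were lower, against 2.17%.

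**Figure D4:**
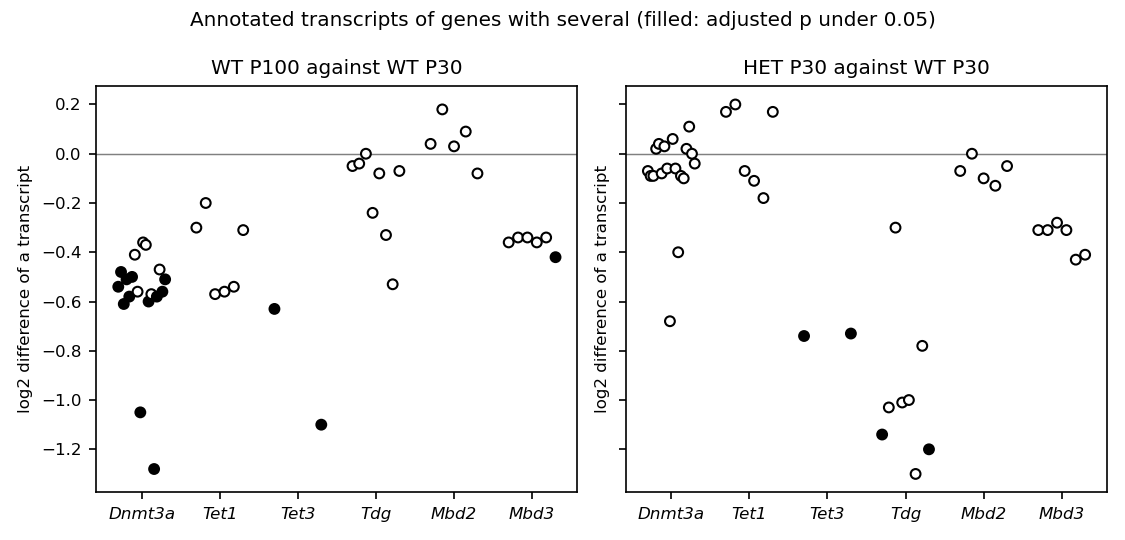
Log2 difference (vertical axis) of each annotated transcript of the genes with several (Dnmt3a, Tet1, Tet3, Tdg, Mbd2 and Mbd3), for age and genotype. Filled points are those with an adjusted p under 0.05. All 18 Dnmt3a transcripts lie below 0 for age and spread around 0 for genotype, and both Tet3 transcripts are called in both.

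Other genes of the pathway were read from 5 lists chosen by function, of which 54 of 55 genes were in the files and 50 passed the filter. With age 1 was higher and 7 lower, and between genotypes 1 was higher and 3 lower, with medians of 0.04 and -0.04. Over all tested genes, 4.54% were lower with age and 7.54% were called in either direction. Between genotypes these shares were 2.32% and 3.23%. With any 1 library left out, the 7 became 3 to 6 and the 3 became 2 to 3. None of the 4 tested other writers and cofactors (such as Dnmt3b and Uhrf2) was called in either comparison. Of 7 other methyl-CpG readers, the age call was Zbtb38, a zinc finger protein that binds methylated DNA, which rose from 217 ± 14.1 to 263 ± 5.95 CPM (log2 difference 0.28, adjusted p = 0.0271).

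The calls in demethylation and repair fell mainly on the Gadd45 genes, stress and activity inducible factors that have been linked to DNA demethylation. Gadd45g had 24.7 and 22.2 CPM in wild-type P30, 6.73 and 6.69 at P100 and 10.6 and 10.9 in heterozygous P30, with log2 differences of -1.80 for age and -1.13 for genotype (adjusted p = 6.55e-06 and 0.000309). Gadd45b, the gene named in the series title, had 14.6 and 16.2, then 6.22 and 6.42, then 6.90 and 5.79 CPM, with -1.29 and -1.28 (adjusted p = 0.000344 and 0.000531). With age Gadd45a also fell, from 4.29 to 2.04 CPM (-1.04, adjusted p = 0.033), as did Parp1, a sensor of DNA strand breaks, from 120 ± 3.30 to 98.6 ± 3.44 CPM (-0.28, adjusted p = 0.0319). In heterozygotes Cxxc4, whose CXXC domain protein is a known partner of Tet2, rose from 70.6 ± 5.1 to 89.4 ± 1.47 CPM (0.34, adjusted p = 0.0438), a call lost when any 1 library was left out. Of the 17 tested genes in this list, 4 were lower with age, and 1 was higher and 2 lower in heterozygotes.

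Of the 11 tested NuRD partners of Mbd2 and Mbd3, only Chd3, a remodelling ATPase, was called with age, falling from 539 ± 14.5 to 378 ± 55.6 CPM (log2 difference -0.51, adjusted p = 0.00335). It stood at 542 ± 26.6 CPM in heterozygotes, and none of the 11 was called between genotypes. In the methyl donor cycle, Ahcyl1, a homologue of the enzyme that clears S-adenosylhomocysteine, fell with age from 304 ± 5.28 to 248 ± 6.98 CPM (-0.30, adjusted p = 0.0266).

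Marker lists of cell types and states were read in the same comparisons. Over all tested genes, 4.54% were called lower with age and 2.32% between genotypes. Of the activity-regulated genes, which neurons induce on stimulation, 19 of 20 fell in each comparison, with summed levels of 3970 to 4850 CPM in wild-type P30, 1310 to 1340 at P100 and 1270 to 1630 in heterozygotes. Fos was at 191 and 210, then 19.3 and 32.7, then 37.9 and 46.9 CPM in these groups. Of myelinating oligodendrocyte markers, 10 of 12, Cldn11 among them, fell in each comparison, with sums of 3280 to 3430, 1610 to 1910 and 2370 to 2430 CPM. Oligodendrocyte precursor markers fell in 6 of 8 cases with age and 1 of 8 between genotypes, with sums of 322 to 324, 189 to 224 and 287 to 311 CPM. Astrocyte markers were lower in 3 of 10 cases with age and 2 of 10 between genotypes, microglial ones in 2 and 0 of 10, endothelial and mural ones in 2 and 1 of 10, and neuronal ones in 1 and 0 of 10. Neuronal markers summed to 9120 to 10300 CPM in wild-type P30, 10100 to 10300 at P100 and 9550 to 9710 in heterozygotes. No marker of these 7 lists was at 0 in any library. The part of these lists in the differences of Dnmt3a, Tet3, Mbd3 and Tdg was not tested.

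In the authors' deposited tables, which compare transcripts, the age difference of Dnmt3a was -0.54 on the log2 scale with an adjusted p of 0.000137. Those tables gave Tet3 the same sizes as here, -1.10 for age and -0.73 for genotype, but adjusted p-values of 0.118 and 0.0522. For Mbd3 with age the authors' deposited value was -0.36, with an adjusted p of 0.37.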

How the data were processed

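Total RNA from layer IV visual cortex was sequenced, with 2 libraries in each of 3 groups taken from the labels. Per the file headers, the authors deposited a raw count of reads per Ensembl transcript, 95533 in all. Named in the submitters' processing notes are the mm10 build, Bowtie, HTSeq and, in version 1.8.3, DESeq. The other versions, the annotation release, the use of strand and the treatment of reads that map to several places are not given in the sources used here. Dnmt3a and Tdg have annotated pseudogene copies, and 6.83% of the exon bases of Tdg overlap Glt8d2 on the other strand, so their counts are uncertain to that extent. The authors' deposited comparison tables held signal values (group means of scaled counts), the fold ratio between groups, the same ratio as log2, a p-value and an adjusted p-value. The dispersion scores that the authors deposited in them, estimates per transcript per the file headers, were not used.

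The gene count was that of its transcript with the most reads. The 9669 transcripts without a gene, with 13.96% of the counts, were left out. Low counts were removed by filterByExpr with a minimum count of 10 and a minimum total of 15, and libraries were scaled by TMM. The quasi-likelihood test of edgeR 4.0.16 under R 4.3.3 was fitted as 1 factor of 3 groups over 6 libraries with 3 residual degrees of freedom. P-values were adjusted by Benjamini-Hochberg over all 15841 genes, or over all 62163 transcripts in a separate fit. For 1 gene alone, 2 libraries against 2 cannot give an exact permutation p below 0.333. Transcript names, lengths and coordinates came from GENCODE vM21 (GRCm38, the same assembly as mm10). Alternatives were another scaling or filter, DESeq2 1.42.0, limma-voom, a replicate block, fewer libraries and counts summed over transcripts.

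The members, gene lists and motifs were chosen with earlier results of these data known. Named were all 9 members, up to 4 called genes of each pathway list, and at most 2 genes of each marker list. Other named markers (Otx2, Rorb, Ttr) were chosen after their values were seen. For each member called in the age or genotype comparison, the 3 genes most alike in level over the libraries were also named. Some genes that the rule would name are not reported here.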

Additional observations from a re-analysis of the deposited data

How the results depend on the processing

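Of 405 member differences under alternatives, 367 kept their direction and their side of the threshold. The age calls of Dnmt3a (log2 -0.56 to -0.52) and Tet3 (-1.33 to -0.81) held in 15 of 15 alternatives, and that of Mbd3 was lost in 9. The genotype call of Tet3 was lost without wild-type P30 replicate 2 and when counts were summed over transcripts (adjusted p = 0.0534). Members called lower numbered 3 with age (2 when a library was left out) and 1 between genotypes (2 without a filter, 0 with summed transcripts, 0 to 3 with a library left out). The 15 transcripts lower with age became 6 under DESeq2 and 7 to 10 with a library left out. The 4 between genotypes became 2 under DESeq2, 2 under limma-voom and 1 to 6 with a library left out. Pathway genes with age were 0 higher with summed transcripts, 0 to 1 higher and 3 to 6 lower with a library left out. Between genotypes the 1 higher pathway gene became 2 under upper-quartile scaling, without a filter and with only 4 libraries, and 0 under DESeq2, with summed transcripts and with any library left out. Against wild-type P100, the 2 members higher in heterozygotes became 1 to 3 with a library left out, and the 0 lower became 1 without a filter, 1 with only 4 libraries, and 0 to 1 with a library left out. Directions near 0 reversed. Leaving out a library gave Dnmt1 0.00 to 0.12, Tet2 -0.21 to 0.23 and Tdg -0.40 to 0.47 for age, Tet2 -0.39 to 0.05 and Mbd1 -0.17 to 0.04 for genotype, and Mbd1 -0.10 to 0.12 against wild-type P100. Tet2 for age was 0.00 under upper-quartile scaling and limma-voom. Tdg between genotypes was called without a filter (adjusted p = 0.000359). The cause of these changes was not tested. Tdg had the fewest reads of the 9 genes, with 27 to 82 per library.

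Deviations of same-numbered libraries correlated at -0.0041, 0.1002 and -0.00031 for the 3 pairs of groups. The value of 0.1002 was that of wild-type P30 with heterozygous P30. With 1 difference between duplicates per group, these values cannot decide whether the replicate numbers pair the libraries. With the replicate block 3 members were lower with age and 1 between genotypes, 1 was lower against wild-type P100 (Tdg, -1.15, adjusted p = 0.0472), 2 pathway genes were higher between genotypes, and Tet2 for age was 0.00.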

Other observations

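Genes whose level over the 6 libraries was most like that of a called member were listed as a description, among 12922 genes, with Pearson r of log2 CPM (pseudocount 0.5). The 6 libraries fall into 3 groups of duplicates, and the 3 highest of so many values are high by selection. For Dnmt3a they were Slc30a1, which encodes a zinc exporter (r = 0.9999), Nckap5l (0.9988) and Cdipt, which encodes phosphatidylinositol synthase (0.994). For Tet3 they were Wdr26 (0.9973), Mdga1 (0.9947) and Fam21 (0.9945). For Mbd3 they were Akt2, a protein kinase of insulin signalling (0.9978), Cap1 (0.9941) and Fgf1, a fibroblast growth factor (0.9936).

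In heterozygous P30 tissue against wild-type P100 tissue, 3 pathway genes were higher and 1 lower of the 50 tested (edgeR, adjusted p under 0.05), against 2.44% and 2.66% of all tested genes. Among them Chd3, the NuRD ATPase, was higher by 0.52 on the log2 scale (adjusted p = 0.00397) and Mat2b, a regulatory subunit of the enzyme that makes S-adenosylmethionine, by 0.37 (0.00852). Mta3, another NuRD subunit, was lower (-0.40, adjusted p = 0.0356).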
